A study of Bactrocera dorsalis with 3 samples.

Results

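Among the transcripts already present in newly laid eggs of the oriental fruit fly, Bactrocera dorsalis, a small group stood far higher some hours later. These genes were chosen from their values, with 1 library per age. A gene was taken when its FPKM (fragments scaled by transcript length and by library size) was 5 or more in embryos of 0-1 hours post-oviposition (hpo) and when its FPKM + 1 at 5-8 hpo was at least 4 times that at 0-1 hpo. In addition, its FPKM + 1 at 2-4 hpo had to be above 0.25 times that at 0-1 hpo, which leaves out transcripts with a deep trough. Only numbered gene models on NW_ scaffolds with a span under 100000 bases were considered. Of 13489 models in the tables, 12724 met these structural limits, 6129 of them had FPKM 5 or more at 0-1 hpo (called maternally present here), and 169 met the whole rule.

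The 3 groups were whole embryos of Bactrocera dorsalis aged 0-1, 2-4 and 5-8 hpo, kept in RNAlater, with no strain, genotype or treatment given by the labels. RNA was extracted with Trizol, selected on poly-T beads and sequenced from random-primed cDNA. Reads assigned to genes numbered 68140879, 65069185 and 74817640. With 1 library per age no difference has a replicate check, no p-value can be given, and the intervals below are 95% exact intervals of the read counts that cover counting error only. Nothing in the sources used here says how many embryos went into a library. A pair of genes that could mark carried-over or adult tissue could be matched by name. The yolk protein gene VIT1 stood at FPKM 1.58, 3.02 and 1.13 at the 3 ages, and the opsin gene Rh1 had 0 reads at each.

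In insects the egg is loaded with maternal messenger RNA, and the embryo's own genome is switched on in steps while maternal transcripts are removed, a handover known as the maternal-to-zygotic transition. A gene can belong to both sets, being loaded into the egg and then transcribed again by the embryo, so that its transcript is present from the start and becomes more abundant later. In Drosophila, genes of this kind are known as maternal-zygotic genes. Libraries from whole embryos hold both sources of RNA together and do not tell them apart. Since messenger RNA was captured by its poly-A tail, a longer tail and more RNA cannot be told apart either, and in whole embryos more cells with a transcript and more transcript per cell cannot be told apart.

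All 169 boosted genes are known by identifier alone. The reference gene table matched 162 of them, every one of these annotated as protein-coding and none with an informative symbol or synonym. Of the other 5960 maternally present genes it matched 5724, with 5702 protein-coding and 53 with such a name. Lack of a name is thus not particular to the boosted genes. The other 7 numbers were not matched. No function can therefore be given for single genes, and the description below rests on level, timing, gene structure and position.

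The boosted genes started below the typical maternal transcript and ended well above it. Their FPKM at 0-1 hpo ran from 5.10 to 775 with a median of 19.9, against a median of 37.8 over the 6129 maternally present genes. At 2-4 hpo the range was 2.39 to 2133 and the median 31.0, against 28.1. At 5-8 hpo it was 27.7 to 4288 with a median of 134, against 27.6. Among the 12724 structurally eligible genes, the median boosted gene lay at percentiles 63.1, 77.5 and 94.9 at successive ages. The 100 most abundant of these genes held 1, 1 and 10 boosted genes, and the 500 most abundant 7, 16 and 75. These levels and ranks follow in part from the rule, which picks a high ratio between 5-8 and 0-1 hpo. It also asks for FPKM + 1 of at least 24 at 5-8 hpo.

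The share of reads assigned to the 169 genes together was 1.37%, 2.41% and 9.76% at the 3 ages. The 5 boosted genes with the most reads held 23.5%, 30.0% and 19.4% of the group's reads at the 3 ages, and 50% of the group's reads lay in 21, 18 and 24 genes. At 5-8 hpo the group's reads were thus not more concentrated in a few genes than at 0-1 hpo. How the increase itself was divided among genes was not computed. The other 5960 maternally present genes went from 94.3% of reads to 91.9% and 81.0%. Genes of late onset (same structural limits, FPKM below 1 at both earlier ages and 5 or more at 5-8 hpo), although more numerous at 325, took 0.00957%, 0.0214% and 1.55%. At 5-8 hpo their median FPKM was 12.7 and 7 of them, 2.15%, reached 100, whereas 104 boosted genes, 61.5%, did so and 11 reached 1000. These levels follow in part from the rule, which asks for FPKM + 1 of at least 24 at 5-8 hpo.

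**Figure D1:**
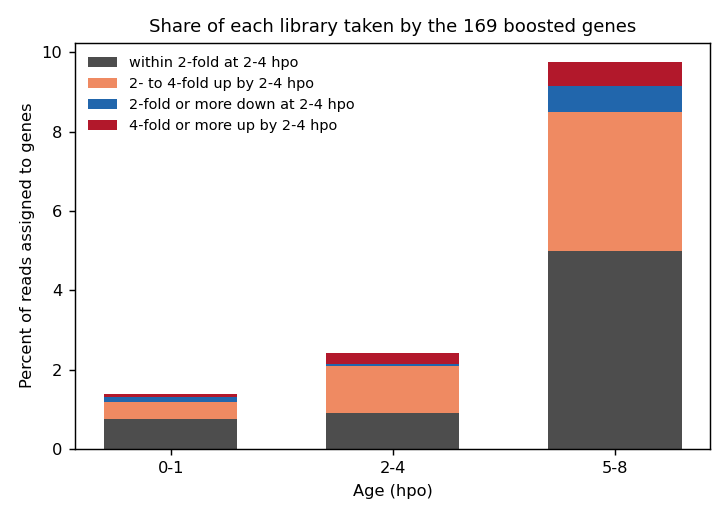
Percent of all reads assigned to genes (vertical axis) taken by the 169 boosted genes in the library of each age (horizontal axis, hpo), stacked by the gene's course up to 2-4 hpo. The whole bar stands at 1.37%, 2.41% and 9.76%, and at 5-8 hpo genes within 2-fold of their starting level at 2-4 hpo hold 5.00% and those 2- to 4-fold up by then 3.50%.

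Seen from the other side, 782 structurally eligible genes were at least 4-fold higher at 5-8 than at 0-1 hpo on FPKM + 1. Of these, 494 stood below FPKM 1 in the 0-1 hpo library, 118 from 1 to under 5 and 170 at 5 or more. The boosted genes thus made up 21.6% of the 782, and they held 68.4% of the FPKM gained by the 782 genes together. A 4-fold ratio asks for a larger FPKM gain from a gene that starts higher. With the floor of FPKM 5, the 68.4% thus follows in part from the rule. Of the 6129 maternally present genes 2.77% were past this fold, a share that the rule itself turns into the group and from which nothing is read. Only 1 gene with that fold was left out for its trough at 2-4 hpo, LOC109579824, at FPKM 19.2, 0.982 and 81.4.

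The size of the gain varied over a wide range. Ratios of FPKM + 1 between 5-8 and 0-1 hpo ran from 4.02 to 88.2 with a median of 5.68. They were below 8 for 125 genes and at least 8 for 44, at least 16 for 14, at least 32 for 7 and at least 64 for 2. The median over the 6129 maternally present genes was 0.752, so the typical maternal transcript had a lower FPKM at 5-8 hpo. FPKM is relative to the reads of its library, and the amount of a transcript per embryo was not measured. Levels at 0-1 and 5-8 hpo kept much the same order within the boosted genes (Spearman's rho 0.81 across 169 genes, against 0.62 across the 6129), as a description of the same 2 libraries in which the rule itself ties the later level to the earlier one by a lower limit.

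The largest ratio belonged to LOC105228438, on scaffold NW_011876369.1, minus strand, 1950316 to 1957423. Its reads numbered 482, 824 and 53185 at the 3 ages, with FPKM 7.12, 12.7 and 715, a 100.5-fold difference between the first and last age (91.9 to 110). Nearly all of the gain therefore fell after 2-4 hpo. LOC105230054 on NW_011876386.1, minus strand, 928696 to 930111, stood at FPKM 14.3, 61.8 and 1087, 76.2-fold higher at 5-8 than at 0-1 hpo (70.9 to 81.9). It was already 4.33-fold higher at 2-4 hpo (4.00 to 4.70), so both steps were steep.

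LOC105228724 combined a large fold with a very high final level. On NW_011876374.1, plus strand, 572279 to 580033, it had 3081, 11740 and 210019 reads, FPKM 33.8, 135 and 2101, and was 62.1-fold higher at 5-8 than at 0-1 hpo (59.9 to 64.4). LOC105227188 on NW_011876354.1, plus strand, 830371 to 854291, had FPKM 5.91, 17.8 and 373, a 63.2-fold difference (59.1 to 67.7). LOC105225894 on NW_011876335.1, plus strand, 1182792 to 1195925, stood at 13.5, 38.1 and 766, 56.7-fold higher (54.5 to 59.0). These 3 genes were 3.99-, 3.02- and 2.82-fold higher by 2-4 hpo and then 15.6-fold (15.3 to 15.9), 20.9-fold (20.1 to 21.8) and 20.1-fold (19.6 to 20.6) higher from there to 5-8 hpo, in the order named.

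Large ratios were also found in other genes that started below the group's median level. LOC105228426 on NW_011876369.1, plus strand, 1759555 to 1761428, had the lowest starting level of the group, at FPKM 5.10, 10.8 and 285, and was 55.8-fold higher at 5-8 than at 0-1 hpo (51.4 to 60.6). LOC105231035, a short gene of 710 bases on NW_011876393.1, plus strand, 1935228 to 1935937, was slightly lower at 2-4 than at 0-1 hpo. Its reads numbered 403, 274 and 19766 and its FPKM was 10.02, 7.14 and 448. The step from 2-4 to 5-8 hpo was 62.7-fold (55.7 to 70.9), and on FPKM + 1 it was the largest of that step among the boosted genes. LOC105227827 on NW_011876364.1, minus strand, 179637 to 185562, likewise went from FPKM 5.45 to 3.20 and then to 134.

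The other genes among the 10 largest ratios differed in structure. LOC105223989 on NW_011876292.1, plus strand, 717301 to 723394, is a single-exon model of 6094 bases with 4531, 26361 and 136533 reads, FPKM 10.9, 66.5 and 299, 27.4-fold higher at 5-8 than at 0-1 hpo (26.6 to 28.3). LOC105233019 on NW_011876099.1, plus strand, 40822 to 77626, spans 36805 bases, of which 3018 are exonic, and stood at FPKM 22.8, 47.4 and 485, 21.3-fold higher (20.6 to 21.9). A long intron-rich gene and a long single-exon gene thus both reached high levels by 5-8 hpo. LOC105233101 on NW_011876112.1, plus strand, 128581 to 130042, was next in order, at 54.8, 123 and 1098.

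**Figure D2:**
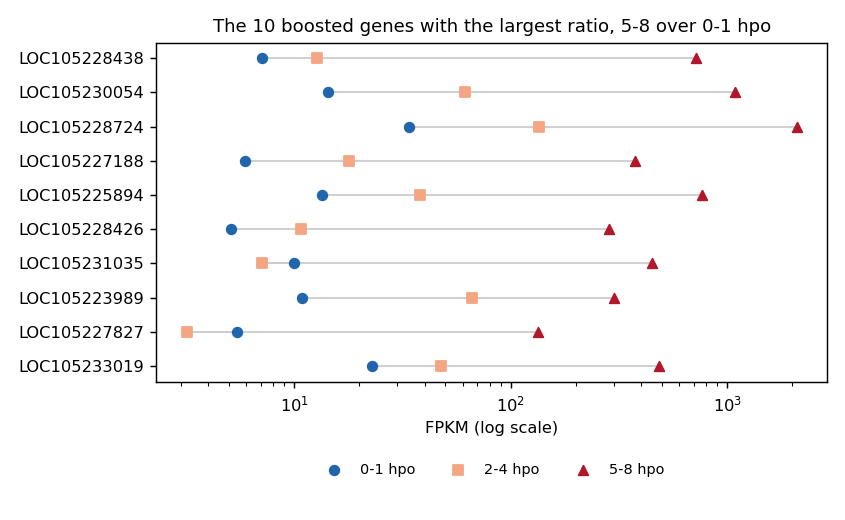
FPKM (horizontal axis, log scale) at 0-1 hpo (circles), 2-4 hpo (squares) and 5-8 hpo (triangles) of the 10 boosted genes with the largest ratio of FPKM + 1 between 5-8 and 0-1 hpo, 1 library per age. In 8 of the 10 the square lies to the right of the circle, and in LOC105231035 and LOC105227827 to its left, and the step from square to triangle is the longer one in 9, the exception being LOC105223989 with steps of 6.09-fold and 4.50-fold.

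The most abundant boosted genes at 5-8 hpo were mostly ones that started high. LOC105231497 on NW_011876396.1, minus strand, 96240 to 98570, led at each age, with 91935, 241765 and 558913 reads and FPKM 775, 2133 and 4288, a 5.54-fold difference between the first and last age (5.50 to 5.58). LOC105226946 on NW_011876350.1, minus strand, 1105831 to 1107610, followed with FPKM 424, 673 and 2325, 5.49-fold (5.42 to 5.55). Their folds lay close to the group's median, in contrast to that of LOC105228724, the third in level.

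Further down, LOC105229632 on NW_011876381.1, plus strand, 2295529 to 2298547, stood at FPKM 103, 160 and 1559, 15.1-fold higher at 5-8 than at 0-1 hpo (14.7 to 15.4). LOC105232160 had 143, 188 and 1498, and LOC105231783 had 248, 686 and 1429. Of these 3, LOC105231783 had a ratio of 2.76 on FPKM + 1 at 2-4 hpo and the others less than 2. LOC105224955 was level between the first ages at FPKM 180 and 178 and reached 1396, 7.74-fold above 0-1 hpo (7.59 to 7.88). The gene numbered 105233412, one of the 7 without a match in the reference table, stood at 203, 515 and 1202, with 246481 reads at 5-8 hpo. Of the 10 highest genes at 5-8 hpo, 6 were also among the 10 highest boosted genes at 0-1 hpo.

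The gain was mostly late. At 2-4 hpo the median boosted gene had reached 5.71% of the FPKM it had gained by 5-8 hpo (quartiles -1.64% and 20.3%), 101 of the 169 had reached less than 10% and 13 more than 50%. FPKM was higher at each step in 116 genes, lowest at 2-4 hpo in 49 and highest at 2-4 hpo in 4. The rule places every boosted gene higher at 5-8 than at 0-1 hpo. The counts so far in this paragraph were not made over all maternally present genes, so whether they are unusual is not known. The median ratio of FPKM + 1 was 1.44 between 2-4 and 0-1 hpo and 4.74 between 5-8 and 2-4 hpo, where the maternally present genes had medians of 0.828 and 0.928. From 2-4 to 5-8 hpo 149 boosted genes were at least 2-fold and 105 at least 4-fold higher, against 21.7% and 8.40% of the maternally present genes. These comparisons share libraries with the rule, so they describe how the gain was divided and are not support for it.

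The genes were split into 4 courses by the ratio of FPKM + 1 between 2-4 and 0-1 hpo. Most genes, 103 of 169 or 60.9%, were within 2-fold of their starting level at 2-4 hpo, with median FPKM 15.3, 20.6 and 109. Another 40 genes, 23.7%, were 2- to 4-fold higher by 2-4 hpo, with medians 29.9, 83.9 and 267. At least 4-fold higher by then were 14 genes, 8.28%, with medians 11.4, 65.1 and 107, and at least 2-fold lower were 12 genes, 7.10%, with medians 23.9, 10.5 and 150. In all, 54 boosted genes, 31.95%, were at least 2-fold higher at 2-4 hpo, where 2.84% of the maternally present genes were, and 14 of the 20 maternally present genes at least 4-fold higher by then (0.326%) belonged to the group. These counts share the 0-1 hpo library with the rule, so they are a description and not support for the group. Lower by at least 2-fold were 7.10% of the boosted genes against 26.0% of the maternally present genes, again with that library shared. The rule's limit on the trough, a ratio of 0.25 or less, left out only 1 gene with the 4-fold gain. After median-of-ratios scaling 63 of the 169 genes were 2-fold or more above their starting level at 2-4 hpo and 7 were as far below it.

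**Figure D3:**
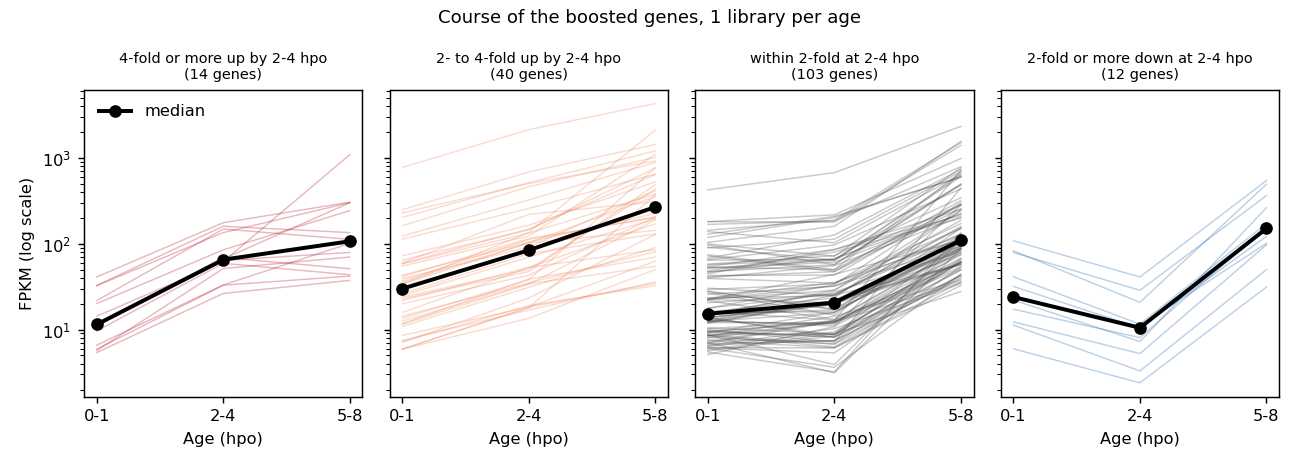
FPKM (vertical axis, log scale) by age in hpo (horizontal axis) of each boosted gene (thin lines), in 4 panels by its ratio of FPKM + 1 between 2-4 and 0-1 hpo, with the panel's median (black line and points) and 1 library per age. The medians go from 11.4 to 65.1 to 107 in the 14 genes of the first panel and from 23.9 to 10.5 to 150 in the 12 genes of the last.

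In the 14 genes that were at least 4-fold higher by 2-4 hpo, the second step was mostly small, with a median ratio of 1.38 between 5-8 and 2-4 hpo. LOC105230778 on NW_011876391.1, plus strand, 1926944 to 1933250, had the largest early gain, at FPKM 5.69, 51.3 and 69.9, 9.03-fold higher at 2-4 than at 0-1 hpo (8.35 to 9.77) and 1.36-fold higher from there to 5-8 hpo (1.32 to 1.41). LOC105223816 on NW_011876288.1, minus strand, 793236 to 799797, stood at 11.3, 68.9 and 51.1. LOC105222011 on NW_011876220.1, plus strand, 203788 to 207060, had 21.7, 148 and 112, and LOC105231967 on NW_011876398.1, minus strand, 265738 to 267500, had 9.64, 59.1 and 43.4. These 3 and LOC105230289, at 32.6, 160 and 135, were the 4 boosted genes with their highest value at 2-4 hpo, and for each the counting interval of the ratio between 5-8 and 2-4 hpo lay below 1 (0.699 to 0.860 over the 4 genes). They met the rule through their level at 5-8 hpo, although the gain was complete at 2-4 hpo.

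Other early gainers went on. LOC105223987 on NW_011876292.1, minus strand, 630366 to 631286, had 379, 1819 and 6392 reads, FPKM 6.57, 33.0 and 101, and was 15.4-fold higher at 5-8 than at 0-1 hpo (13.8 to 17.1). LOC105229887 stood at FPKM 20.0, 84.7 and 243 and LOC105232528 at 32.4, 135 and 300. By contrast LOC105233211, at 5.90, 32.8 and 41.9, and LOC105228314, at 5.39, 26.3 and 37.3, were close to a plateau, as was the unmatched gene 105222625 at 11.6, 63.7 and 79.1.

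The 12 genes with a dip had ratios of FPKM + 1 between 5-8 and 2-4 hpo from 8.53 to 31.99 and a median of 12.9. A dip of at least 2-fold together with the rule fixes a ratio of at least 8 for this step, and 3 genes of the level course were above the largest of these values. LOC105224950, a single-exon model on NW_011876316.1, minus strand, 810410 to 811714, came closest to the trough limit. Its reads numbered 7351, 1759 and 48112 and its FPKM 82.7, 20.7 and 493, so it was 3.99-fold lower at 2-4 than at 0-1 hpo (3.79 to 4.21) and then 23.8-fold higher (22.7 to 24.96). LOC105224361 on NW_011876303.1, plus strand, 235069 to 244825, was 3.04-fold lower at 2-4 hpo (2.83 to 3.27), at FPKM 22.0, 7.23 and 262, and the step to 5-8 hpo was 36.3-fold (34.1 to 38.7). Each thus ended far above its starting level after standing well below it.

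LOC105227118 on NW_011876353.1, minus strand, 385727 to 390332, stood at FPKM 41.2, 11.5 and 172. LOC105232303 on NW_011876399.1, plus strand, 1659246 to 1669107, had 31.7, 10.4 and 145, and LOC105233114 on NW_011876113.1, minus strand, 35601 to 76719, had 11.3, 3.29 and 49.9. These 3, with the 2 genes above, had the 5 lowest ratios between 2-4 and 0-1 hpo in the group. The most abundant of the dipping genes was LOC105229790, at FPKM 108, 40.9 and 544, and the least abundant LOC105229163, at 5.96, 2.39 and 31.2 with 326, 125 and 1877 reads. Those were the fewest reads of any boosted gene at 2-4 and 5-8 hpo, and the fewest at 0-1 hpo were 199, so counting error was small against the folds.

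**Figure D4:**
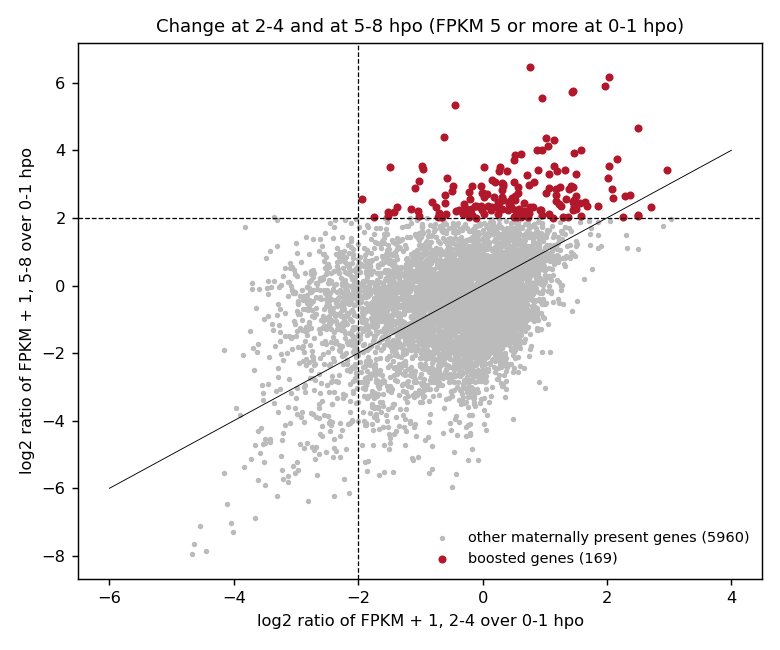
Ratio of FPKM + 1 between 2-4 and 0-1 hpo (horizontal axis, log2) against that between 5-8 and 0-1 hpo (vertical axis, log2) for the 169 boosted genes (red) and the other 5960 maternally present genes (grey), 1 library per age. Dashed lines mark the limits of the rule and the solid line equal values at 2-4 and 5-8 hpo, and 4 boosted genes lie below the solid line.

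Some genes lay close to a limit. Just inside the 4-fold limit were LOC105233204 at FPKM 229, 501 and 923 (ratio 4.02), LOC105223174 at 22.3, 20.6 and 92.9 (4.02) and LOC105230289 (4.03). Just outside were LOC105227187 at 10.7, 2.96 and 45.6 (3.97), LOC105224757 at 24.3, 12.7 and 99.5 (3.97) and LOC105230667 at 43.0, 81.5 and 173 (3.95). For 4 of the 169 genes the counting interval of the fold in FPKM reached below 4. At the floor of FPKM 5 the nearest members were LOC105228426, LOC105228314 and LOC105227827, and the nearest genes left out were LOC105233693 at 4.83, 1.48 and 43.0, LOC105226478 at 4.79, 11.3 and 24.5 and LOC105224920 at 4.58, 2.65 and 41.4. At the limit for the trough the nearest members had ratios of 0.260 (LOC105224950), 0.297 (LOC105227118) and 0.349 (LOC105232303), and the 1 gene outside had 0.0980. Past every limit on values but off the structural ones were 2 models, the mitochondrial gene ND4, a subunit gene of the respiratory chain, at FPKM 115, 299 and 464, and an unnumbered model at 5.86, 42.3 and 130.

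Gene structure was not used by the rule beyond the limit on span. The boosted genes were close to other maternally present genes in exonic length and in the share of single-exon models, and they held less exonic sequence for their span. Single-exon models (listed length equal to span) numbered 11 of 169, 6.51% (95% exact binomial interval 3.29 to 11.3), against 7.15% of the other 5960 maternally present genes and 15.4% of the 325 late-onset genes (11.6 to 19.8). The median span was 3254 bases, with an interval from order statistics of 2593 to 4196, against 2819 (2715 to 2899) and 5576 (4115 to 7131). Median exonic length was 1953 bases (1723 to 2221), against 1920.5 and 1810. Genes are not independent samples of a condition, and no test of these differences was made.

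Median intron content lay between that of the other classes. The median percent of the span that is exonic was 66.2% in boosted genes (55.3 to 76.4), 78.8% in other maternally present genes (77.9 to 79.9) and 42.7% in late-onset genes (35.1 to 53.6), intervals that do not overlap. Boosted genes with introns had a median of 1073 intronic bases (589 to 1974), other maternally present genes 624 (574 to 681) and late-onset genes 5741 (3172 to 7661). More than 1000 intronic bases were found in 81 boosted genes, 47.9% (40.2 to 55.7), against 40.1% (38.8 to 41.3) and 59.7% (54.1 to 65.1). For median intronic bases and for this share, the intervals of boosted and other maternally present genes do overlap. None of these differences was tested. Above 10000 intronic bases the order was different, with 22 boosted genes, 13.0%, against 15.3% of other maternally present genes and 33.5% of late-onset genes. Span ran from 478 to 89229 bases within the group. Under 2000 bases were 55 boosted genes, 32.5%, against 36.1% of other maternally present genes and 29.8% of late-onset genes.

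**Figure D5:**
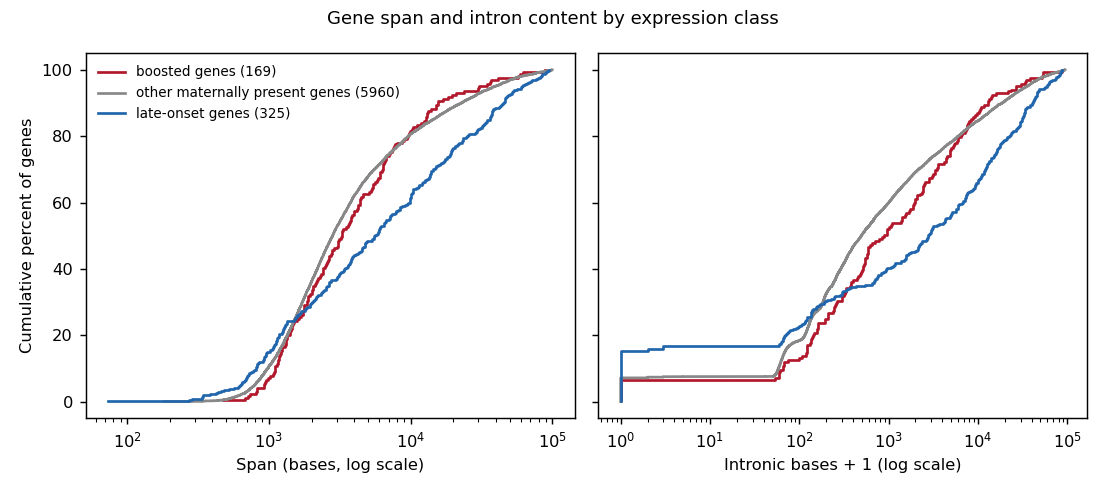
Cumulative percent of genes (vertical axis) by span in bases (left, log scale) and by intronic bases + 1 (right, log scale) for the 169 boosted genes (red), the other 5960 maternally present genes (grey) and the 325 late-onset genes (blue). The red curve runs close to the grey one for span, with medians of 3254 and 2819 bases, and the blue one lies to the right in its upper part, with a median of 5576.

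Within the group, span showed no clear relation with the size or timing of the gain. Spearman's rho across the 169 genes was 0.02 with the ratio between 5-8 and 0-1 hpo and -0.02 with that between 2-4 and 0-1 hpo, each a description over genes of the same libraries. The longest gene was LOC105224720 on NW_011876313.1, with 86463 intronic bases, at FPKM 8.63, 6.76 and 40.8. LOC105230569, with 53556 intronic bases, stood at 15.2, 27.3 and 80.6. LOC105223645, with 53453, stood at 8.53, 12 and 51.1, and LOC105232047, with 52538, at 5.62, 8.43 and 86.1. On FPKM + 1 the ratios of these 4 genes between 5-8 and 0-1 hpo were 4.34, 5.05, 5.47 and 13.2, so 3 lay below the group's median of 5.68 and 1 above it. Of the single-exon genes, 1 was in the course with at least 4-fold by 2-4 hpo, 3 in that with 2- to 4-fold, 6 in the level one and 1 in the dipping one.

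The boosted genes were scattered over the genome. They lay on 96 scaffolds, 58 of which held 1 of them, and the most on any scaffold were 6, on NW_011876400.1, which held 144 maternally present genes. The plus strand carried 84 of the 169. A boosted gene had another within 20000 bases in 19 cases, 11.2%, where 9.16% of the other maternally present genes had a boosted gene that near. Among late-onset genes 13.5% had another late-onset gene within that distance. There are 325 late-onset genes against 169 boosted ones, so these shares are not matched for number and are not compared.

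Flanking genes mostly did not share the gain. Of 264 expressed models next to a boosted gene (FPKM 1 or more at 0-1 or 5-8 hpo), 24 were at least 4-fold higher at 5-8 than at 0-1 hpo, 9.09% (5.91 to 13.2), against 7.74% (7.20 to 8.31) of those next to other maternally present genes and 26.3% (21.8 to 31.1) of those next to late-onset genes. At 2-fold the shares were 25.0% (19.9 to 30.7), 18.8% (18.0 to 19.6) and 40.5% (35.4 to 45.8). The median log2 ratio of the models next to boosted genes was -0.15, against -0.23 and 0.31. A model can flank more than 1 gene and is then counted for each, and the differences were not tested. Among the 24 are the genes of the 5 boosted pairs described below, with each pair counted from both sides. Those genes pass 4-fold by the rule, and the intervals take all counts as independent. In each class, models below FPKM 1 at 0-1 hpo counted as expressed only through their level at 5-8 hpo, which can raise these shares. A model next to a late-onset gene can also be a late-onset gene, which is higher at 5-8 than at 0-1 hpo by definition.

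Direct neighbours that were both boosted formed 5 pairs, 10 genes or 5.92% of the group, where 3.44% of other maternally present genes had a boosted neighbour. These pairs were chosen by their position after the rule was applied. LOC105232787 and LOC105232797 on NW_011876068.1 are divergent, with 35920 to 41988 on the minus strand and 43307 to 47502 on the plus strand, 1318 bases apart. The first stood at FPKM 40.9, 176 and 304 and the second at 162, 461 and 1014, so the ratios on FPKM + 1 were 4.21 and 2.84 by 2-4 hpo, and the genes ended 7.44-fold (7.24 to 7.64) and 6.27-fold (6.18 to 6.36) above 0-1 hpo. LOC105228722 on the minus strand and LOC105228724 on the plus strand of NW_011876374.1 are divergent too, 18683 bases apart, at FPKM 113, 257 and 647 and, as given above, 33.8, 135 and 2101. They rank among the more abundant boosted genes at 5-8 hpo, but their folds differ widely.

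LOC105225894 and LOC105225893 on NW_011876335.1 converge, 9634 bases apart, at FPKM 13.5, 38.1 and 766 and at 24.8, 69.7 and 194. Both lie inside the 69342-base span of LOC105225895, which is on the minus strand like LOC105225893 and stood at 30.9, 45.4 and 105. The remaining pairs are tandem and follow each other closely. LOC105223174 at 397371 to 398361 and LOC105223175 at 398554 to 402378 on NW_011876267.1, plus strand, are 192 bases apart and stood at 22.3, 20.6 and 92.9 and at 6.07, 3.63 and 44.5. LOC105224720 and the single-exon model LOC109579444, at 451918 to 453771 on NW_011876313.1, overlap by 8 bases on the plus strand, and the latter had FPKM 7.44, 6.13 and 35.9 beside 8.63, 6.76 and 40.8. Their values are alike at each age, and whether the 2 models are 1 transcription unit was not tested. Direct neighbours in the reference gene annotation too are 4 of the 5 pairs, and the members of the pair LOC105228722 and LOC105228724 are on different sequences there.

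Overlapping models could share reads, since neither a strand setting for the counting nor a strand-keeping library kit is stated in the sources used here. Another model overlapped 36 of the 169 boosted genes, 21.3%, against 28.2% of the other maternally present genes. On the opposite strand 29 of the 169 boosted genes were overlapped, and 1431 of the other 5960 maternally present genes. For 6 boosted genes the overlapping model had the higher FPKM at 5-8 hpo, and for 3 it was itself at least 4-fold higher there. One such case is LOC105226171, at FPKM 23.4, 24.7 and 158, which is overlapped by LOC105226173 at 0.166, 1.21 and 4.46, and the pair of LOC105224720 and LOC109579444 makes up the rest. Wholly inside a longer model lay 6 boosted genes, and on FPKM + 1 the surrounding model was higher at 5-8 than at 0-1 hpo for 3 of them and lower for the other 3. LOC105232160, given above, lies inside LOC105232162 on the opposite strand, which stood at 67.8, 105 and 136. The unmatched gene 105231606, at 8.31, 14.3 and 37.5, lies inside LOC105231691, which stood at 39.7, 25.04 and 9.51. The model around the first of these 2 genes was thus higher at 5-8 than at 0-1 hpo by a smaller fold than the inner gene, and that around the second was lower.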

How the data were processed

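The submitters' processing notes name the aligner HISAT2 2.0.4 and the counting tool HTSeq 0.9.1. Settings, genome build, annotation and strandedness are not stated in the sources used here. The authors deposited FPKM values of 13489 models, named so in the file, and, per the file headers, whole-number read counts with the position, strand and exonic length of each model. Coordinates are those of the deposited tables. The length behind the FPKM, computed from counts and totals, differed by over 0.1% from the listed exonic length for 46 of the 169 boosted genes (0.698 to 1 times it). Their levels vary with the length chosen, while FPKM ratios between ages equal the ratios of reads per library total.

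Ratios that choose or class genes use FPKM + 1, a pseudocount that shrinks ratios of weakly expressed genes. Folds printed for single genes are ratios without the pseudocount, with exact conditional binomial intervals. Exact binomial intervals go with shares, and order-statistic intervals with medians. A RefSeq gene table (assembly ASM2337382v1) matched 11887 models, and it served only for names, gene types and order along sequences. It holds no product descriptions, so the keyword lists prepared for functional groups could not be applied. No sequences were used.

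Named genes are the 10 largest ratios, the 10 highest levels at 5-8 hpo, the 5 largest and 5 smallest ratios at 2-4 hpo, the 3 nearest genes on either side of each limit, and neighbouring members. Other genes were named after their values were seen. The group, lists and rules were chosen with earlier results of these data known. Alternatives were a pseudocount of 0.1, an FPKM floor of 10 or none, fold limits of 3 and 6, TPM, median-of-ratios scaling, RPM ratios and, added after seeing the data, removal of overlapping models. The procedure was run on simulated counts with counting error only, which hold no spread between batches of embryos. Python 3.11.15, numpy 2.4.6, pandas 2.3.3, scipy 1.17.1 and matplotlib 3.10.9 were used.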

Additional observations from a re-analysis of the deposited data

How the results depend on the processing

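The alternatives gave 54 values for 6 results, and 41 were close to the reported ones (counts within 1.5 times, shares and medians within their intervals). Without an FPKM floor the rule took 781 genes in place of 169, of which 181 were at least 2-fold higher by 2-4 hpo, 12.5% were single-exon and 145 had a neighbouring member. A fold limit of 3 gave 307 genes, 26 at least 2-fold lower at 2-4 hpo and 37 with a neighbouring member. A limit of 6 gave 78 genes, 32 higher and 3 lower at 2-4 hpo, and 4 with a neighbouring member. All these follow from a looser or stricter rule. Genes with a neighbouring member numbered 6 with a floor of FPKM 10 and 4 without models that overlap another, in place of 10, so this count rests on few genes. On the TPM scale the rule took 195 genes, 143 of them among the 169, and after median-of-ratios scaling 200, with 166 shared. Of the 169 genes 144 stayed past 4-fold on TPM and all 169 after median-of-ratios scaling. Scaling moved the median log2 ratio of the 6129 maternally present genes between 5-8 and 0-1 hpo from -0.41 to -0.55 (TPM) and -0.25 (median-of-ratios), and that of the boosted genes from 2.51 to 2.39 and 2.67. Alternatives for promoter windows and protein identity were not run, as no sequences were used. No paired analysis was possible because there are no replicates to pair. Depth was no limit for the boosted genes, the fewest reads being 199, 125 and 1877 at the 3 ages, but nothing here measures the spread between batches of embryos.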
